A study of Mus musculus with 5 samples.

Results

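Albumin, alpha-fetoprotein and 8 other genes for plasma carrier proteins were followed across an embryonic stem cell line, a hepatoma line and the hybrids made by fusing them. The set held Alb, Afp, Ttr, Gc, Trf, Ahsg, Fetub, Ambp, Rbp4 and Hpx, 10 of the 18327 mouse genes that could be named on the array. It was chosen by gene identity, through the transcript record printed for each non-control probe, and each gene was read by 1 probe. Of the 10 genes, 9 were well above background on at least 1 array, as were 15409 of all named genes. Ttr was dim on every array.

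These proteins are made mostly by hepatocytes and released into the blood, where most of them hold a poorly soluble or reactive ligand. Albumin carries fatty acids and bilirubin, alpha-fetoprotein is its fetal counterpart, and retinol, iron, heme, vitamin D and thyroxine each have a carrier of their own. The visceral endoderm of the yolk sac makes several of them before the liver does. Alpha-fetoprotein is shut off in the liver after birth and returns in many hepatomas, which is why it serves as a tumor marker.

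RNA was measured on 5 one-colour arrays, 1 per condition. ES was the mouse embryonic stem cell line E14, and Hepa1-6 a mouse hepatoma line. EHe was a hybrid line from the fusion of E14 with Hepa1-6, kept undifferentiated, and EHeD7 and EHeD14 were the same hybrids after 7 and 14 days of differentiation in vitro. ES and EHe grew with leukemia inhibitory factor and serum replacement, whereas Hepa1-6 was kept in a serum-containing high-glucose medium, and medium and cell state thus changed together. For the differentiated hybrids the labels give a monolayer in the serum-containing medium, and the paper's methods give embryoid bodies in serum replacement. The dye was Cy3 by the labels and Cy5 by the methods. The hybrids were drug-selected colonies with a near-tetraploid chromosome content, and the colony used for the arrays was not given. A level in these mixed cultures does not separate the number of cells that express a gene from the RNA in each of them.

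A level is the log2 of the background-corrected signal minus the log2 of the array's 75th percentile, so 0 is that percentile. A probe was dim where the scanner software did not call it well above background, and its fold change is then a bound against the lowest signal so called on that array. No condition had a second array, so no p-value was computed and the errors printed cover the spot alone: the SD over 10 spots for Afp and the software's error of 1 spot for the others. A change was counted past 3-fold. Between 54.6% of probes in Hepa1-6 and 67.6% in EHeD7 passed that call. Hepa1-6 was hybridised on a slide of its own and the other 4 arrays shared 1 slide, so slide and line cannot be told apart. The cell labels had their markers: 6 of 7 stem cell genes were past 3-fold lower in Hepa1-6 than in ES, with Pou5f1, Sox2 and Zfp42 dim there, and 9 of 11 hepatocyte genes outside the set were well above background in Hepa1-6. Scaling bore on the ES array: the 7 spike-in probes well above background on every array lay 0.93 higher in ES than in Hepa1-6 at the median on this log2 scale, and 0.15 to 0.41 higher in the hybrids.

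The regulatory sequence in front of these genes is shown first for 5 promoters: Alb and Afp, which lie next to each other, Ahsg and Fetub, which also do, and Rbp4, the one carrier gene past 3-fold higher in differentiated hybrids. RefSeq promoter windows (assembly GRCm38.p6) were available for 8 of the 10 genes, in 10 windows, since Fetub and Rbp4 have 2 annotated starts each. Each sequence is the 250 bases before the start, read 5′ to 3′ on the gene's strand. Capitals mark matches on either strand to motifs of liver regulators or to a TATA box: GTTAAT, a part of the HNF1 site, TGTTTNC for FOXA, TTGCNNAA for C/EBP, CAAAGTCCA for HNF4 and TATAAA. The coordinates are chr5:90460620-90460869 on the plus strand for Alb, chr5:90490464-90490713 on the plus strand for Afp, chr16:22891765-22892014 on the plus strand for Ahsg, chr16:22918132-22918381 on the plus strand for the first start of Fetub and chr19:38124812-38125061 on the minus strand for the second start of Rbp4.
Alb: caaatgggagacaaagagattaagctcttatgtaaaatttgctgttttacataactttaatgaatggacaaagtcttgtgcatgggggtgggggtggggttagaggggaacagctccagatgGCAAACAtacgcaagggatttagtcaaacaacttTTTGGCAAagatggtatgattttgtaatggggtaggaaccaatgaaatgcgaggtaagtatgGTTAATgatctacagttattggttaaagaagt
Afp: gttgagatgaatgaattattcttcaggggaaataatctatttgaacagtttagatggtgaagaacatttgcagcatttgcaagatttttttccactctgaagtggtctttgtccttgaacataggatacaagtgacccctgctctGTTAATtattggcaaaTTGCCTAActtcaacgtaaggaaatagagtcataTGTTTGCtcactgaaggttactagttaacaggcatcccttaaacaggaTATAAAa
Ahsg: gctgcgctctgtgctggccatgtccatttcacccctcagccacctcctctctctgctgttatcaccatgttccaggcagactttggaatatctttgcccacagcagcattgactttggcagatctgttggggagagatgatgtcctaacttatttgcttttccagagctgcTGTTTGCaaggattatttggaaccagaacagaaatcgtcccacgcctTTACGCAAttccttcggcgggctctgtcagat
Fetub, first start: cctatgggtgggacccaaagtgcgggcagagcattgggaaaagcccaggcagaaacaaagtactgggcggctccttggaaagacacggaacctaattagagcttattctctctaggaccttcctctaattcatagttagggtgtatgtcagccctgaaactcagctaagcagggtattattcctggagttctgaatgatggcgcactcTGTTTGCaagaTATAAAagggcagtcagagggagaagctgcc
Rbp4, second start: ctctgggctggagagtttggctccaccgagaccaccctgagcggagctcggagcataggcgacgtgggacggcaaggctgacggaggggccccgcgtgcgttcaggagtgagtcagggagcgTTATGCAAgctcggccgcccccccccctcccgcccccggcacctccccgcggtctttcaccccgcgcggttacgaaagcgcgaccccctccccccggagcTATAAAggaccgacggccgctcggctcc

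Alb and Afp each held 1 match to the HNF1 part, 1 to the FOXA motif and 1 to the C/EBP motif. In Alb the order from the start outward was HNF1 at -32 to -27, C/EBP at -94 to -87 and FOXA at -128 to -122, and in Afp it was FOXA at -55 to -49, C/EBP at -89 to -82 and HNF1 at -105 to -100, so these 3 motifs stood in another order. Afp also held TATAAA at -7 to -2. Of all 32851 promoter windows of 300 bases, 7.10% held GTTAAT, 20.5% the FOXA motif and 10.8% the C/EBP motif. Ahsg held FOXA and C/EBP matches, and the first start of Fetub a FOXA match at -42 to -36 followed by TATAAA at -31 to -26. Gc held GTTAAT at -52 to -47. The second start of Rbp4 held a C/EBP match and TATAAA at -28 to -23, Ambp a FOXA match and Hpx a C/EBP match. TATAAA was in 13.6% of all windows. The HNF4 letters, in 0.475% of all windows, and the whole HNF1 palindrome, in 3 windows, were in none of the carrier genes' windows. A match is a description of these letters only.

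**Figure D1:**
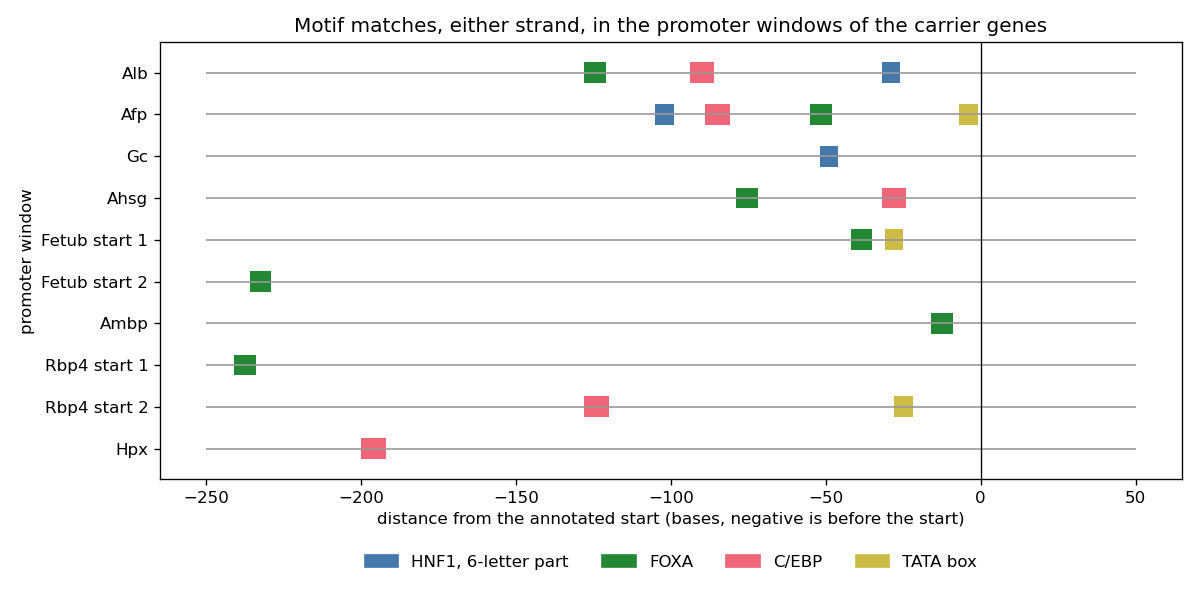
Motif matches on either strand (coloured bars) along the 300-base promoter windows of the carrier genes, by distance in bases from the annotated start (vertical line). Alb and Afp hold the same HNF1, C/EBP and FOXA matches in opposite order, and the other windows hold 1 or 2 matches each.

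Hepa1-6 against ES asked how far the hepatoma parent stood from the stem cell parent in these genes. Of the 9 carrier genes tested, 8 were past 3-fold higher in Hepa1-6 and Ahsg was past 3-fold lower, where 13.1% of all genes tested were higher and 21.0% lower (24.1% and 11.1% when the arrays were centred on their spike-ins). The median log2 difference was 6.87 over the carrier genes and -0.42 over the 14543 genes well above background on either array. Alb and Afp ranked 3 and 4 of 15409 genes by this difference, with dim signals at the detection limit, Rbp4 36, Hpx 43, Gc 86 and Trf 159. The counts of 8 and 1 were the same with spike-in centring.

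**Figure D2:**
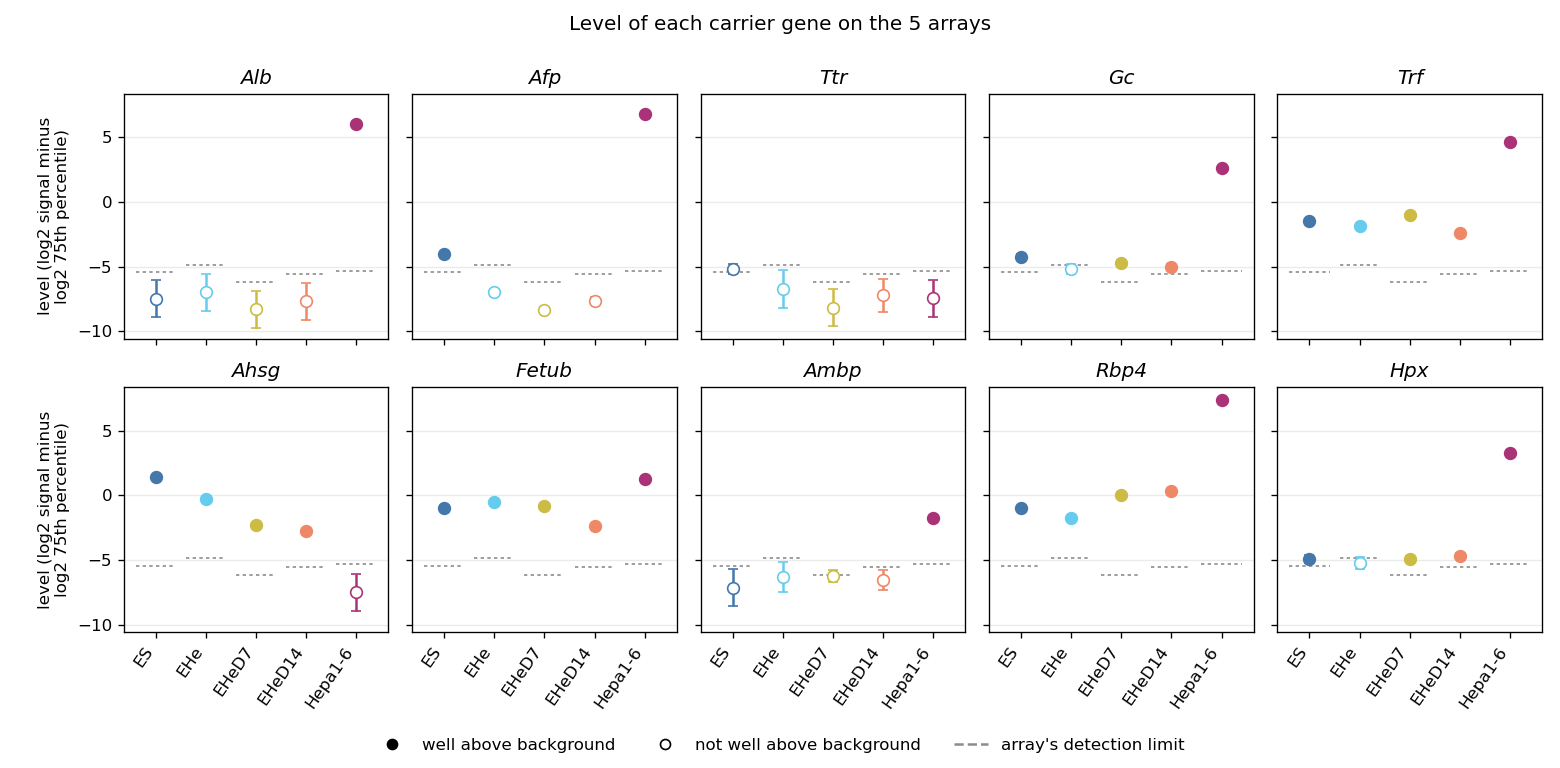
Level of each carrier gene (log2 signal minus the log2 75th percentile of the array) on the 5 arrays, with the spot error as bars. Filled points are well above background, open points are dim, and dashed lines are the detection limit of each array. Hepa1-6 stands above the other 4 arrays for 8 genes, from Rbp4 at 7.36 to Ambp at -1.75, and below them for Ahsg.

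Albumin and its fetal counterpart were the genes with the widest span. The level of Alb was -7.47 in ES, -6.97 in EHe, -8.28 at day 7 and -7.67 at day 14, all dim, and 6.06 ± 0.14 in Hepa1-6, where the signal was 97125 against 4.22 to 10.3 on the other arrays. The hepatoma line was the only one of the 5 arrays with Alb well above background. Its signal was at least 2857-fold higher than in ES and at least 3135-fold higher than in EHeD14. Afp, read by 10 spots, was -4.02 ± 0.17 in ES, -6.97 in EHe, -8.31 at day 7, -7.64 at day 14 and 6.77 ± 0.21 in Hepa1-6. All 10 Afp spots were well above background in ES and in Hepa1-6, and 0 of 10 in EHe, EHeD7 or EHeD14. The ES signal of 67.2 was thus low, 1768-fold below Hepa1-6, but it was measured, and EHe lay at least 1.77-fold below it, a bound within 3-fold.

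Ttr, the carrier of thyroxine and partner of Rbp4 in the blood, gave no level above background. Its signal was 30.4 in ES, 12.2 in EHe, 4.58 at day 7, 9.01 at day 14 and 8.49 in Hepa1-6, and none was called well above background. No array gave a positive signal at this probe, so whether it detects the transcript was not tested and the values do not show that Ttr was absent from any of the cells. By RT-PCR, the paper reports Ttr as abundant in the parent hepatoma line, where this probe was dim. No fold change was given for Ttr.

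Gc, the vitamin D binding protein of the albumin family, had a level of -4.24 ± 0.20 in ES, -5.17 in EHe (dim), -4.69 ± 0.18 at day 7, -5.01 ± 0.25 at day 14 and 2.63 ± 0.14 in Hepa1-6. On this scaling the 3 low measured levels, in ES, EHeD7 and EHeD14, did not differ beyond spot error from their neighbours in that order. EHeD14 minus ES, at -0.78, was beyond it. The spike-ins lay 0.93 above Hepa1-6 in ES and 0.41 above it in EHeD14, so this difference would be smaller with spike-in centring. Hepa1-6 was 117-fold above ES and 200-fold above EHeD14. Hpx, which binds free heme, was -4.89 ± 0.31 in ES, -5.23 in EHe (dim), -4.89 ± 0.20 at day 7, -4.67 ± 0.23 at day 14 and 3.26 ± 0.14 in Hepa1-6. Its levels in ES, EHeD7 and EHeD14 overlapped within spot error on this scaling, and Hepa1-6 was 284-fold above ES.

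Trf, the iron carrier transferrin, was well above background everywhere. Its level was -1.44 ± 0.15 in ES, -1.86 ± 0.15 in EHe, -1.03 ± 0.14 at day 7, -2.39 ± 0.15 at day 14 and 4.67 ± 0.14 in Hepa1-6. Hepa1-6 was 68.7-fold above ES. The 4 other arrays lay within 1.36 of each other on the log2 scale, with each step between neighbours beyond spot error on this scaling. Ambp, the common precursor of alpha-1-microglobulin and the protease inhibitor bikunin, was dim in ES at -7.12, in EHe at -6.31, at day 7 (-6.22) and at day 14 (-6.51). It was -1.75 ± 0.15 in Hepa1-6, at least 12.7-fold above ES.

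Rbp4, the retinol carrier, was -0.97 ± 0.15 in ES, -1.73 ± 0.15 in EHe, 0.06 ± 0.14 at day 7, 0.33 ± 0.14 at day 14 and 7.36 ± 0.14 in Hepa1-6. The hepatoma line was 321-fold above ES, and the differentiated hybrids lay above both undifferentiated arrays. EHeD7 and EHeD14 did not differ beyond spot error (log2 difference 0.27, interval -0.13 to 0.67 from spot error alone).

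The fetuins, cystatin-family plasma proteins, ran in opposite directions between the parents. Ahsg, fetuin-A, an inhibitor of calcium phosphate deposition, was 1.43 ± 0.14 in ES, -0.28 ± 0.15 in EHe, -2.29 ± 0.15 at day 7, -2.73 ± 0.15 at day 14 and dim in Hepa1-6 at -7.49. It was thus highest in ES and at least 106-fold lower in Hepa1-6, with every hybrid array between the parents. Fetub, fetuin-B, which keeps the egg coat open to fertilization, was -0.95 ± 0.15 in ES, -0.49 ± 0.15 in EHe, -0.82 ± 0.14 at day 7, -2.33 ± 0.15 at day 14 and 1.26 ± 0.14 in Hepa1-6. In the order ES, EHeD7 and EHe no neighbours differed beyond spot error, but EHe lay above ES beyond it (log2 difference 0.47, interval 0.06 to 0.87). Hepa1-6 was 4.64-fold above ES and EHeD14 lay lowest.

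**Figure D3:**
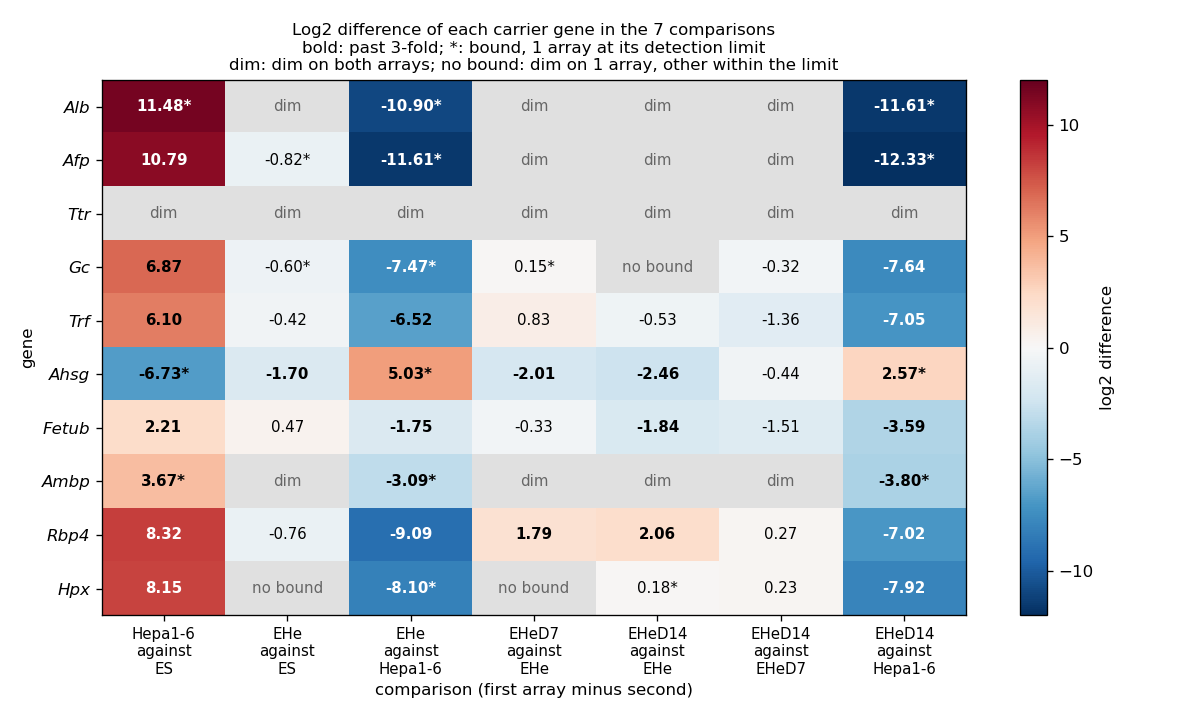
Log2 difference of each carrier gene (vertical axis) in the 7 comparisons (horizontal axis, first array minus second), coloured from blue (lower) to red (higher). Bold values are past 3-fold, an asterisk marks a bound, and grey cells have no fold. The 2 comparisons of a hybrid with Hepa1-6 are blue except for Ahsg, whereas the 3 comparisons within the hybrids hold values from -2.46 to 2.06.

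EHe was compared with each parent to see which level the fused cells held. Against ES, 0 of 9 carrier genes were past 3-fold higher (2.38% of all genes) and 1, Ahsg, was past 3-fold lower (3.22% of all genes). With spike-in centring these shares of all genes were 8.70% and 1.05%. Ahsg was 3.26-fold lower in EHe, and this call depended on the scaling: the log2 difference of -1.70 became -1.58 with median centring and -0.98 with spike-in centring, both within 3-fold. Trf was 1.34-fold lower, Rbp4 1.70-fold lower and Fetub 1.38-fold higher, and with spike-in centring their log2 differences became 0.30, -0.04 and 1.19. Against Hepa1-6, 8 of 9 carrier genes were past 3-fold lower in EHe (12.8% of all genes) and Ahsg was at least 32.7-fold higher (18.0% of all genes past 3-fold higher, 11.5% with median centring against 20.5% lower). The differences below Hepa1-6 ran from 3.36-fold in Fetub through 92.0-fold in Trf and 544-fold in Rbp4 to bounds of at least 1911-fold in Alb and 3130-fold in Afp.

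The differentiated hybrids were set against EHe to see whether carrier genes changed over 14 days. Both days share the EHe array, so their values are given side by side. At day 7, Rbp4 was 3.46-fold higher (6.78% of all genes were past 3-fold higher) and Ahsg 4.04-fold lower (4.10% lower), and 7 of 9 carrier genes were within 3-fold or dim. At day 14, Rbp4 was 4.18-fold higher (6.82% higher), and Ahsg and Fetub were 5.49-fold and 3.58-fold lower (4.41% lower). The 1 or 2 genes called of 9 are too few to be set apart from these shares. The median log2 difference at day 14 was -0.35 over the 6 carrier genes well above background on either array and -0.07 over all genes. After normexp background correction the day-7 differences of Rbp4 and Ahsg, at 1.52 and -1.56, and the day-14 difference of Fetub, at -1.45, were within 3-fold.

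Alb, Afp and Ambp were dim in EHe and at both days, so no change in them could be measured. By RT-PCR, the paper reports that tissue-specific expression, with Alb as the hepatic marker, came back in differentiating hybrids. That assay was not compared with the arrays here. Trf stood 1.78-fold above EHe at day 7 and 1.44-fold below it at day 14. Between day 7 and day 14, 0 of 9 carrier genes were past 3-fold in either direction, where 0.493% of all genes were higher and 0.649% lower (0.338% and 0.980% with spike-in centring). Fetub, at 2.84-fold lower, and Trf, at 2.57-fold lower, moved furthest over that week, both beyond spot error, and both were past 3-fold with spike-in centring, at -1.77 and -1.62 on the log2 scale.

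EHeD14 was set against Hepa1-6 to see how near the carrier genes came to the hepatoma level. Of 9 genes, 8 were past 3-fold lower in EHeD14 (12.2% of all genes), and Ahsg was at least 5.95-fold higher (17.7% higher; 11.3% higher and 22.5% lower with median centring). The Ahsg call was lost with normexp background correction, at 1.39 on the log2 scale. Fetub was at a log2 difference of -3.59, Rbp4 was 130-fold, Trf 133-fold, Gc 200-fold and Hpx 243-fold lower, and the bounds were at least 14.0-fold for Ambp, 3135-fold for Alb and 5136-fold for Afp. The Rbp4 signal at day 14 was thus 0.769% of that in Hepa1-6 on the linear scale, and 15.6% of the log2 gap from ES to Hepa1-6. At day 7 it was 0.636% of the Hepa1-6 signal. Hpx and Trf stood at 0.412% and 0.753% of the Hepa1-6 signal at day 14. With median centring the day-14 shares were lower, at 0.440% for Rbp4, 0.235% for Hpx and 0.431% for Trf.

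Genes were ranked by Euclidean distance from Alb between mean-centred levels on the 5 arrays. Any dim signal weaker than the faintest one called well above background on its array was first set to that faintest signal. The nearest were the collagenase gene Mmp13, the proteoglycan gene Dcn, the fibrinogen chain gene Fgb, Igfbp1 and the keratin gene Krt20. For Afp they were Dcn, Igfbp1, Tmem252, Mmp13 and Krt20. Fgb and Igfbp1 also encode secreted liver proteins. Alb and Afp themselves lay 1.26 apart by this measure, nearer than Afp to its closest other gene, Dcn at 1.53, while Mmp13 lay 1.06 from Alb. A Pearson r over 0.99, which takes no account of level or size, was found with 241 genes for Alb and 198 for Afp over only 5 arrays, and these include genes well above background on every array.

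Gene order along the chromosomes was taken from RefSeq (GRCm38.p6) for protein-coding genes. On chromosome 5 the order was Gc, Npffr2, Adamts3, Cox18, Ankrd17, Alb, Afp, Afm, Albfm1, Rassf6, Cxcl5 and Ppbp. Afm, the afamin gene of the same family, was dim on 4 arrays and -3.07 in Hepa1-6, at least 5.11-fold above ES. Ankrd17, next to Alb on the other side, lay between 2.14 and 2.52 on all 5 arrays, so a gene beside Alb held its level where Alb spanned from dim to 6.06. Rassf6, a gene of the Ras-association family beyond Afm, was -3.45 in ES, -4.65 in EHe, -1.61 at day 7, -1.24 at day 14 and 1.30 in Hepa1-6. The chemokine genes Cxcl5 and Ppbp were at least 9.50-fold and 9.14-fold above ES in Hepa1-6.

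On chromosome 16 Ahsg and Fetub were followed by Hrg, Kng2 and Kng1, which encode further cystatin-related plasma proteins. Hrg was -1.62 in ES, -2.90 in EHe, -3.11 at day 7, -3.42 at day 14 and -4.55 in Hepa1-6, the same descending order of arrays as Ahsg. Its steps from EHe to day 7 and from day 7 to day 14 were only 1.16-fold and 1.24-fold. No spot error was computed for Hrg, so its order among the hybrids is not resolved. Kng1 was -4.19 in ES, -3.17 in EHe and -4.08 in Hepa1-6, and dim at both days of differentiation. Kng2 was dim in ES and the hybrids and had no usable spot in Hepa1-6. Of Ahsg, Fetub, Hrg and Kng1, Fetub alone was past 3-fold higher in Hepa1-6 than in ES.

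**Figure D4:**
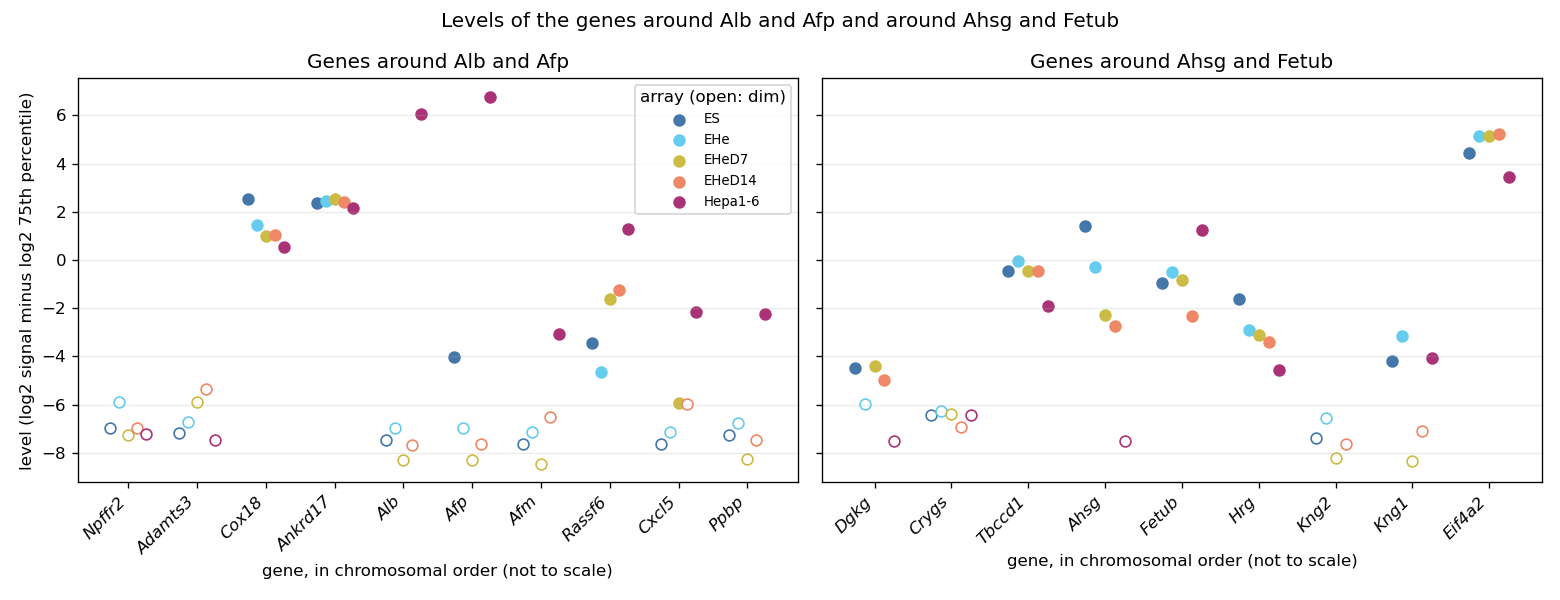
Levels (log2 signal minus the log2 75th percentile) of the genes around Alb and Afp (left) and around Ahsg and Fetub (right), in chromosomal order and not to scale, with 1 point per array (none for Kng2 in Hepa1-6) and open points where dim. In the left panel Hepa1-6 is the highest array from Alb to Ppbp and not at Ankrd17. In the right panel Ahsg and Hrg descend from ES to Hepa1-6, with small steps among the hybrids for Hrg.

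The other genes of the pathway were read from lists chosen by function. Of 15 other plasma carrier genes tested, 4 were past 3-fold above ES in Hepa1-6 and 7 below it (13.1% and 21.0% of all genes). The higher ones were Cp, the copper-carrying ferroxidase, at least 113-fold, Selenop, the selenium carrier, at 109-fold, Afm at least 5.11-fold and Serpina7, the thyroxine-binding globulin, at least 4.93-fold. Pltp, a phospholipid transfer protein, was at least 24.5-fold lower and Apom 20.8-fold lower. At day 14 against EHe, Ltf, lactotransferrin, was at least 5.51-fold and Selenop 3.14-fold higher, and 3 of 15 were lower, led by Apod at least 12.7-fold (6.82% and 4.41% of all genes). Serpina7 was well above background at day 7 and in Hepa1-6, and dim on the other 3 arrays, at -2.91 and -3.12 where it was measured.

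Bikunin, cut from the Ambp product, is joined to the heavy chains of the inter-alpha-inhibitor family. Of 11 genes for these chains and for plasma protease inhibitors, 2 were past 3-fold higher in Hepa1-6 than in ES, Itih2 by 853-fold and Serpina1d by 9.83-fold, and 4 were lower (13.1% and 21.0% of all genes). The Serpina1 genes are near-identical copies, so the Serpina1d probe may read its relatives. Itih1 was dim in Hepa1-6 and Itih3 was not past 3-fold. At day 14 against EHe 0 of 11 were higher and 1, Pzp, was lower, at least 3.89-fold (6.82% and 4.41% of all genes).

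Receptors and intracellular handling of the carried ligands formed a list of 19 tested genes, of which 8 were past 3-fold higher at day 14 than in EHe and 1, Fcgrt, the neonatal Fc receptor that recycles albumin, was 4.17-fold lower (6.82% and 4.41% of all genes). The iron exporter gene Slc40a1 led, at -1.50 in ES, -3.67 in EHe, 1.35 at day 7, 1.71 at day 14 and 2.87 in Hepa1-6. Its rise from EHe to day 14 was 41.4-fold. Cubn, Amn and Lrp2, which encode the cubilin, amnionless and megalin parts of an endocytic receptor that takes up several of these carriers, were 18.1-fold, 5.92-fold and 3.31-fold higher. Asgr1, Steap3 and Tfr2 were also higher. Stra6, the cell-surface receptor of Rbp4, was 2.21-fold higher at day 14, within 3-fold, and lay between -0.21 and 1.18 on the 5 arrays. In EHe against ES, 0 of 19 were past 3-fold higher and 4 were lower (2.38% and 3.22% of all genes). The lower ones were Steap3, Cubn, Slc40a1 and Asgr2, the last at 3.01-fold, close to the threshold. On this scaling the rises of Steap3, Cubn and Slc40a1 thus began from an EHe level below ES. Steap3 at day 14, at -2.07, was still below its ES level of -1.25. The spike-ins lay 0.93 above Hepa1-6 in ES and 0.21 above it in EHe, so spike-in centring would make these differences smaller. The calls of this list were not recomputed with it. In Hepa1-6 against ES 4 of 19 were higher, Slc40a1 at 20.7-fold among them, and 5 were lower (13.1% and 21.0% of all genes).

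Regulators of liver genes include the FOXA and C/EBP factors whose motif letters were searched above. Of 16 tested, 7 were past 3-fold above ES in Hepa1-6 and 4 below it (13.1% and 21.0% of all genes). The higher ones were led by Foxa3 at least 98.6-fold and Foxa2 at 75.2-fold and included Cebpa at 8.22-fold and Cebpb at 15.2-fold. The lower ones were led by Gata6 at least 119-fold and Nr5a2 at 25.4-fold. At day 14 against EHe, Foxa2 was at least 5.31-fold, Foxa3 at least 3.83-fold and Gata6 3.64-fold higher, and Nr5a2 and Tbx3 were lower (6.82% and 4.41% of all genes). Gata6 was 1.59 in ES, -2.10 in EHe, -1.52 at day 7 and -0.24 at day 14, so it stayed below its ES level. Foxa2 was -2.85 in ES, dim in EHe, -4.57 at day 7, -2.43 at day 14 and 3.38 in Hepa1-6, so the day-14 array lay near ES and 56.3-fold below Hepa1-6. Hnf4a, at -3.72 in ES, dim in EHe, -4.28 at day 7 and -4.37 at day 14, was -2.69 in Hepa1-6. Foxa1 was well above background in Hepa1-6 alone, at -4.82. Onecut1 was dim on every array but Hepa1-6.

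Markers of other cell types moved on the same arrays. Of 18 visceral endoderm genes, some of which are also in the receptor and regulator lists, 8 were past 3-fold higher and 2 lower at day 14 against EHe (6.82% and 4.41% of all genes). The higher ones included Dab2 at 12.2-fold and Sox17 at 4.69-fold, and the lower ones were Rhox5 at 12.8-fold and Lefty1 at 6.27-fold. In EHe against ES, 5 of the 18 were past 3-fold lower on this scaling, Dab2 and Sox17 among them, and 1 was higher (3.22% and 2.38% of all genes). Apoa1 and Apoa4 were dim on all 5 arrays, and Apob was dim in EHeD14. Of 7 parietal endoderm genes, 5 were past 3-fold higher at day 14, led by Col4a1 at 12.4-fold. Of 11 hepatocyte genes outside the set, 2 were higher at day 14, the keratins Krt18 at 94.8-fold and Krt8 at 77.8-fold, which many epithelia share, and 1 was lower, the prothrombin gene F2 at least 31.0-fold. Fgb was dim in EHeD14 and well above background in Hepa1-6, whereas Apoa1, Apoc3, Fga and Cyp2e1 were dim on all 5 arrays and were not tested. The median level of the visceral endoderm genes, with dim values at the detection limit, was -1.04 in ES, -2.83 in EHe, -2.15 at day 7, -0.99 at day 14 and -3.45 in Hepa1-6, and that of the parietal endoderm genes was 0.52, -1.25, 1.85, 2.04 and 1.10 in the same order. Of the 11 hepatocyte genes, 8 were well above background in ES, 5 in EHe, 9 at day 7, 6 at day 14 and 9 in Hepa1-6. The part of these cell types in the levels of Rbp4 and the fetuins was not tested.

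**Figure D5:**
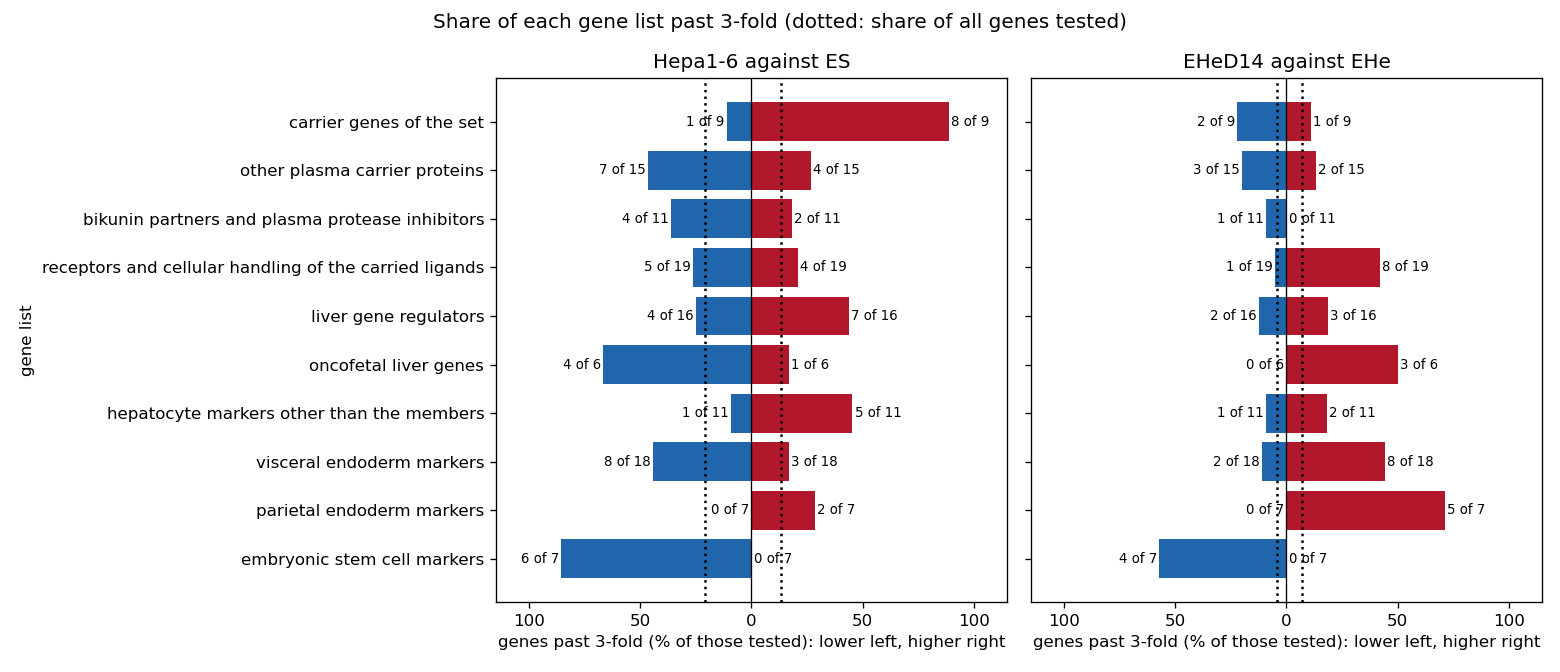
Share of each gene list past 3-fold (horizontal axis, percent of the genes tested, lower to the left and higher to the right) in Hepa1-6 against ES and in EHeD14 against EHe, with counts beside the bars and dotted lines at the share of all genes. The carrier genes of the set stand at 8 of 9 higher on the left panel and 1 of 9 on the right, where the receptor list stands at 8 of 19.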

How the data were processed

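The authors deposited 1 table per array from Feature Extraction (10.7.3.1 per the labels), whose processed signal is an intensity corrected for background by the software, with no normalization between arrays. The deposited series table held the same intensity values, with a largest relative difference of 0. Control spots and outlier spots (73 to 174 per array) were left out, and none was saturated. The log2 signals were averaged over the spots of a probe and shifted by the array's 75th percentile. Probes were named through RefSeq accessions (26888 of 41174), a gene was read by its brightest probe, and genes dim on all 5 arrays were dropped. A dim signal below the lowest one that passed the background call on its array was raised to it. Motifs were searched on both strands. The procedure was tested on simulated data. The carrier genes and gene lists were chosen with earlier results of these data known. From each list genes past 3-fold were named by size, at most 4 per comparison, with others named for their role after their values were seen. Some genes of the lists are counted but not reported here by name. The methods' t-test needs replicates and could not be made. Alternatives were normexp background correction (limma 3.58.1, offset 50, median spot signal), quantile normalization, median centring, the 75th percentile of probes measured on all arrays, dim signals as measured, other filters, the mean of probes, a 2-fold threshold and, added after seeing the data, spike-in centring. The scripts ran in R 4.3.3 and Python 3.11.15 with pandas 2.3.3, numpy 2.4.6 and matplotlib 3.10.9. The number of arrays limits the precision.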

Additional observations from a re-analysis of the deposited data

How the results depend on the processing

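Of 154 counts of carrier genes past 3-fold, over 7 comparisons and 11 alternatives, 136 were within 1.5 times the reported count. None of the 489 log2 differences reversed where the gene was past 3-fold, and 295 moved by less than 0.12, the noise of repeated spots. With normexp background correction, 0 genes were higher and 0 lower at day 7 against EHe (4.44% and 2.31% of all genes). With the same correction, 1 was lower at day 14 against EHe (2.67%), and 0 were higher in EHeD14 than in Hepa1-6 (12.6%). Median centring and spike-in centring each left 0 genes lower in EHe than in ES (2.54% and 1.05% of all genes). Dim signals as measured gave 2 (5.61%), the second being Afp at -2.95. Spike-in centring, chosen after seeing the data, and the 2-fold threshold each gave 2 genes lower at day 14 than at day 7 (0.980% and 1.80% of all genes). Another filter kept only genes well above background on all 5 arrays, which left Trf, Fetub and Rbp4 of the set. Hepa1-6 then had 3 above and 0 below ES (12.9% and 15.6% of all genes kept). In EHe, 0 were lower than in ES (2.02%), and 0 were higher and 3 lower than in Hepa1-6 (13.15% and 12.7%). Against EHe, 0 were lower at day 7 (2.24%) and 1 at day 14 (2.69%). In EHeD14, 0 were higher and 3 lower than in Hepa1-6 (11.3% and 11.6%). The series table, the absence of a filter and the mean of probes changed no count, and none of them could have. The series table holds the same values, and each carrier gene has 1 probe. The filter drops only Ttr of the set, which was dim on every array. Their outcomes are included in the 154 counts and 489 differences, so they add nothing to the agreement. Over all genes, the median difference of Hepa1-6 from ES was -0.42, and 0.38 with median centring and 0.51 with spike-in centring. No paired analysis was possible because there was 1 array of each kind. Signals near background, such as those of Gc and Hpx outside Hepa1-6, limit what could be measured.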

Other observations

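Afp belongs to the genes known as oncofetal in the liver. Of 6 others tested, 3 were past 3-fold higher at day 14 than in EHe (6.82% of all genes) and 4 were past 3-fold lower in Hepa1-6 than in ES (21.0%). Krt19, a keratin of bile duct and early epithelium, was -1.18 in ES, -2.43 in EHe, 4.90 at day 7, 5.20 at day 14 and -4.82 in Hepa1-6, which put EHeD14 198-fold above EHe and 1038-fold above Hepa1-6. Igf2, a fetal growth factor, was 9.79-fold higher and Dlk1, a hepatoblast surface protein, 5.19-fold higher at day 14 than in EHe, and Dlk1 was dim in Hepa1-6. The rise of Igf2 began from an EHe level 5.22-fold below ES: it was -1.45 in ES, -3.83 in EHe and -0.54 at day 14. Gpc3, a glypican used with Afp as a hepatoma marker, was -0.11 in ES, 1.73 in EHe, 1.83 at day 7, 2.45 at day 14 and -2.16 in Hepa1-6, so it was lowest on the array where Afp was highest. Sox9 was dim on 4 arrays and at least 203-fold above ES in Hepa1-6.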
